A study of Arabidopsis thaliana with 3 samples.

Results

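Glucosinolates are the sulphur-rich defence compounds of Arabidopsis and its relatives, and 42 genes of their regulation, synthesis and breakdown were examined in rosettes of the lsm1a lsm1b double mutant and of Col-0, the wild type. The genes were listed by locus code. Of these, 36 were measured by at least 1 named probe, out of 24648 genes measured in all. Each of 3 two-colour arrays carried labelled RNA of the mutant and of Col-0 from 1 biological replicate, so each value is a log2 ratio within an array. The mutant lacks LSM1A and LSM1B, both Arabidopsis copies of the LSM1 subunit of a cytoplasmic ring that promotes messenger RNA decapping and decay. The labels do not give the alleles, and the targeted genes are not analysed here. The mutant RNA was labelled with Cy3 on arrays 1 and 3 and with Cy5 on array 2. The characteristics describe both genotypes as rosettes of 2-week-old plants, grown under 16 h light and 8 h dark at 22 °C, while the sample descriptions give 3-week-old plants exposed for 1 day to 4 °C. Which of these holds is not settled by the labels.

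Every ratio below is read as the mutant over Col-0, so a value above 0 means a higher level in lsm1a lsm1b. This direction is likely, not certain: the deposited values do not state it. Over genes, array 2 correlated with arrays 1 and 3 at Pearson r = 0.427 and 0.452, so its swapped dyes were taken as already allowed for. This reading was not checked in another way. The labels list the mutant as the first channel of each array, while the sample titles name Col-0 first. Should the ratios be Col-0 over the mutant instead, all directions given here are to be turned. Arrays 1 and 3 correlated at r = 0.745. The median SD of a gene between arrays was 0.19, and no intensities were used, so tissue marker levels and probes near background could not be checked.

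Aliphatic glucosinolates derive from methionine, whose side chain is lengthened in a cycle of condensation, isomerisation and decarboxylation before the core structure is built. Indolic glucosinolates derive from tryptophan and skip this cycle. In both branches cytochrome P450 enzymes of the CYP79 and CYP83 families make an aldoxime and activate it, a sulphur donor is added, and a glucosyltransferase and a sulphotransferase finish the core. Separate groups of MYB transcription factors switch on each branch. When tissue is damaged, myrosinases, which are thioglucosidases, remove the glucose, and specifier proteins decide whether nitriles or isothiocyanates form.

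None of the 36 measured genes passed the threshold of an adjusted p of 0.05 in limma, against 1.21% of all genes. An unadjusted p under 0.05 was reached by 10 of the 36, against 20.1% of all genes. Of these 10, 8 were lower in the mutant (background 9.48%) and 2 were higher (background 10.6%). Without array 2 an unadjusted p under 0.05 was reached by 17 of the 36, when 29.7% of all genes did. The 3 genes with a mean difference of 2-fold or more were TGG2, a myrosinase gene, ESM1, a modifier of myrosinase products, and MYB28, a regulator of the aliphatic branch. All 3 were lower in the mutant, and 1.14% of all genes were lower by that much. Each was measured by 1 probe, and a lower level cannot be told apart from a poorer match of that probe in the mutant. The labels call the arrays biological replicates and no more. The limma p-values set each mean ratio against 0, using the spread between these 3 samples moderated over all genes.

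The breakdown genes held the largest differences. TGG2 (AT5G25980), one of the 2 classical leaf myrosinase genes, had log2 ratios of -2.0, -1.07 and -2.45 on arrays 1, 2 and 3. All 3 arrays placed it lower in the mutant, and array 2 showed the smallest difference. Its mean of -1.84 ± 0.70 (SD, n = 3 arrays) is a 3.58-fold lower level in the mutant, with a 95% interval of -2.59 to -1.09 on the log2 scale and a limma adjusted p of 0.0696. TGG1 (AT5G26000), the other classical myrosinase gene, stood at -0.30, -0.56 and -1.17. It was below 0 on every array by less than TGG2, with a mean of -0.68 ± 0.45 (adjusted p = 0.158), and its 3 probes gave means from -0.72 to -0.61. TGG2 minus TGG1 was -1.7, -0.51 and -1.28 on arrays 1, 2 and 3, on the log2 scale. Only 2 coding genes lie between them in the gene order of TAIR10.1, and near copies of this kind can share probe signal.

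ESM1 (AT3G14210), which in Arabidopsis favours isothiocyanates over nitriles, had log2 ratios of -1.26, -1.01 and -2.21. It was lower in the mutant on all 3 arrays, with array 3 apart from the others. The mean of -1.49 ± 0.63 corresponds to a 2.82-fold lower level (95% interval -2.18 to -0.81, adjusted p = 0.0788). ESM1 lies on chromosome 3 with 14 coding genes between it and LSM1B. Of the 10 coding genes on each side of ESM1, 16 were measured, and their mean ratios ran from -0.31 to 0.57 with a median of 0.00. Whether the position of ESM1 bears on its ratio was not tested.

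ESP (AT1G54040), the epithiospecifier protein gene, whose product directs breakdown away from isothiocyanates, was higher in the mutant on all 3 arrays, at 0.50, 0.67 and 0.79. Its values on single arrays are given outside the rule for named genes, chosen after they were seen. The mean was 0.65 ± 0.15 (1.57-fold, 95% interval 0.39 to 0.91, adjusted p = 0.0677), and its 3 probes gave means from 0.54 to 0.77. ESP had the smallest SD of the 7 measured breakdown genes. ESM1 minus ESP was -1.76, -1.68 and -3.003 on the 3 arrays, a mean of -2.15 on the log2 scale. The difference was not tested, since both genes were listed with earlier results known. Neither the activity of the 2 products in Col-0 or the mutant nor the outcome of breakdown was measured. The nitrile specifier genes NSP1 to NSP5 did not share a direction, with means from -0.78 (NSP4) to 0.48 (NSP5).

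NSP5 (AT5G48180) was above 0 on every array with a mean of 0.48 ± 0.47 (adjusted p = 0.285), and NSP1 (AT3G16400) stood at -0.11 ± 0.47 over its 4 probes (adjusted p = 0.876). PYK10 (AT3G09260), a root and seedling beta-glucosidase of endoplasmic reticulum bodies that acts on indolic glucosinolates, stood at 0.36 ± 0.40 over 7 probes (adjusted p = 0.354). PEN2, a further atypical myrosinase gene of the indolic branch, had no named probe. Of the 7 measured breakdown genes, 3 were below 0 on all 3 arrays (background 18%) and 2 were above 0 on all 3 (background 19.7%). TGG1 is strongly expressed in guard cells, and classical myrosinase is also found in myrosin cells. Markers of guard cells and their lineage were set beside TGG1 and TGG2. Of 7 such markers GC1 alone passed the threshold (background 1.21%), at -1.39, -1.11 and -1.25 (mean -1.25 ± 0.14, adjusted p = 0.0366). The call was lost with a dye term (adjusted p = 0.0703) and without any 1 array (adjusted p of 0.295, 0.0735 and 0.213 without arrays 1, 2 and 3). The other markers had means from -0.37 (FAMA) to 0.13 (MYB60). The marker list had medians of 0.13, -0.34 and -0.30 on arrays 1, 2 and 3. In whole rosettes fewer cells of a type and less RNA per cell cannot be told apart, and the part of guard cells in the myrosinase ratios was not tested.

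**Figure D1:**
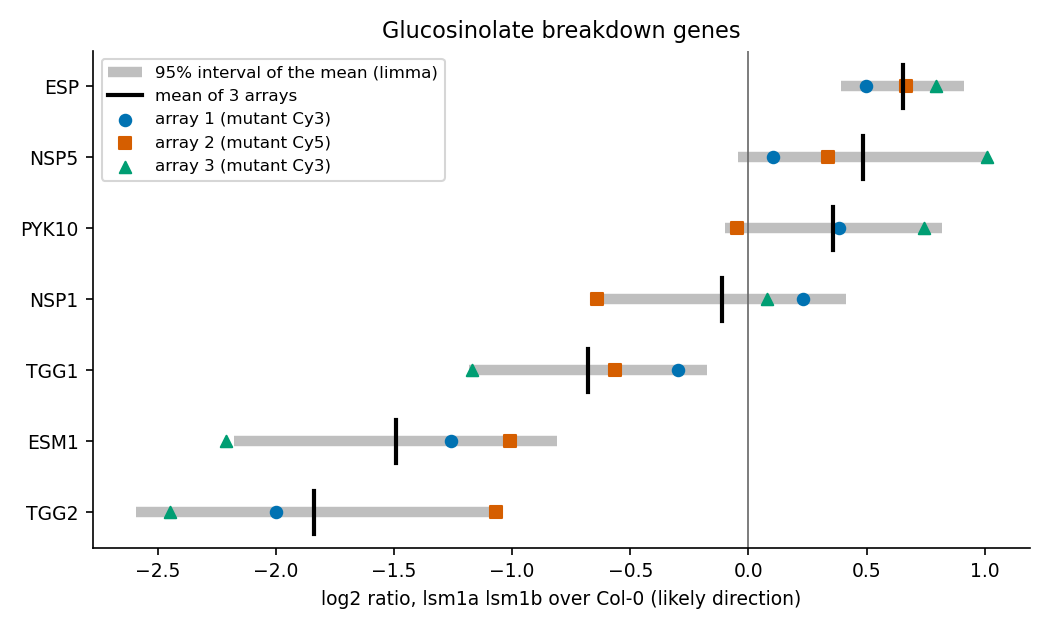
Log2 ratios of lsm1a lsm1b over Col-0 (horizontal axis) of the 7 measured breakdown genes, with 1 symbol per array, a black bar at the mean of 3 arrays and a grey band for its 95% interval in limma. TGG2, ESM1 and TGG1 lie left of 0 on every array, and ESP and NSP5 lie right of 0 on every array.

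The aliphatic regulators did not share a direction. MYB28 (AT5G61420), the main activator of aliphatic synthesis, had log2 ratios of -0.84, -1.98 and -0.91. It was lower in the mutant on all 3 arrays and lowest on array 2. The mean of -1.24 ± 0.64 corresponds to a 2.37-fold lower level (95% interval -1.93 to -0.55, adjusted p = 0.100). MYB29 (AT5G07690), a second activator of the branch, stood at 1.32, -0.27 and 0.78, above 0 on arrays 1 and 3 and below 0 on array 2 (mean 0.61 ± 0.81, adjusted p = 0.40). MYB76 (AT5G07700), which follows MYB29 directly in the gene order, gave 0.79, -0.15 and 0.30 in the same pattern (mean 0.31 ± 0.47, adjusted p = 0.492). MYB28 minus MYB29 was -2.16, -1.71 and -1.69 within the 3 arrays, a narrower spread (SD 0.27) than that of either gene alone. Against MYB76 the difference was -1.63, -1.83 and -1.21. The 10 coding genes on each side of MYB28 held 19 measured genes with a median of 0.01 and a lowest mean of -0.92.

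The indolic regulators had means from 0.04 to 0.40. MYB34 (AT5G60890), an activator of tryptophan and indolic glucosinolate genes, stood at 0.86, -0.25 and 0.60 (mean 0.40 ± 0.58, adjusted p = 0.455). MYB51 (AT1G18570), the main indolic activator in shoots, gave 0.26, -0.10 and 0.20 (mean 0.12 ± 0.19, adjusted p = 0.671). MYB122 (AT1G74080), an accessory activator, gave 0.06, 0.06 and -0.01 (mean 0.04 ± 0.04, adjusted p = 0.911). None of the 3 had 1 sign on all arrays. The 95% interval of MYB122 ran from -0.18 to 0.25, while that of MYB34, from -0.23 to 1.04, includes a 2-fold higher level.

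Among the 10 chain elongation genes, all measured, the methylthioalkylmalate synthase genes were lowest. MAM3 (AT5G23020) stood at -0.53, -0.37 and -0.94, below 0 on all 3 arrays (mean -0.61 ± 0.29, 95% interval -0.98 to -0.24, adjusted p = 0.113). MAM1 (AT5G23010), its direct neighbour, gave -0.21, -1.10 and -0.21, with array 2 apart from the others (mean -0.51 ± 0.51, adjusted p = 0.294). Their order within arrays differed, with MAM1 minus MAM3 at 0.32, -0.73 and 0.73. IPMI1 (AT3G58990), a small subunit of the isomerase of the cycle, was the highest at 0.93, -0.10 and 0.53 (mean 0.45 ± 0.52, adjusted p = 0.350).

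The remaining elongation genes spanned the range between these. IPMI2, the other small subunit gene of the list, stood at 0.42 ± 0.40, and IIL1, which encodes the large subunit, at -0.04 ± 0.08. The dehydrogenase genes IMD1 and IMD3 stood at -0.05 ± 0.71 and -0.40 ± 0.25, and IMD3 was below 0 on every array. BCAT4, the aminotransferase gene that opens the pathway, stood at 0.09 ± 0.72, and BCAT3, a plastid aminotransferase gene, at -0.27 ± 0.23. BASS5, a plastid transporter gene for the keto acids of the cycle, stood at -0.22 ± 0.32. Over the 10 genes the median of mean ratios was -0.13, 4 were below 0 on all 3 arrays (background 18%) and 0 were above 0 on all 3 (background 19.7%). All 10 were below 0 on array 2 (background 47.4%), against 5 of 10 on each of arrays 1 and 3.

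The aliphatic core genes split in a like manner. CYP79F2 (AT1G16400), which acts on long-chain methionine derivatives, stood at -0.17, -1.04 and -0.37, below 0 on every array (mean -0.53 ± 0.46, adjusted p = 0.241). Its direct neighbour CYP79F1 (AT1G16410), which takes short and long chains, stood at 0.09 ± 0.63. CYP79F2 minus CYP79F1 was -0.66, -0.40 and -0.78 within the 3 arrays, although the probes of such close copies can share signal. GSTU20 (AT1G78370), a glutathione transferase gene placed in the sulphur donor step, had probe averages above 0 on every array, at 0.51, 0.02 and 0.74 (mean 0.42 ± 0.37, adjusted p = 0.262). Its 2 probes gave means of 0.07 and 0.77, and on array 2 they stood at 0.16 and -0.13. SOT18 (AT1G74090), a sulphotransferase gene of the last core step, stood at 0.21, -1.12 and -0.27 (mean -0.39 ± 0.67, adjusted p = 0.539). CYP83A1, which oxidises the aliphatic aldoximes, was near 0 at -0.02 ± 0.12, with a 95% interval of -0.26 to 0.23. GSTF11, UGT74C1 and SOT17, for the glutathione, glucose and sulphate steps, stood at 0.11 ± 0.39, 0.04 ± 0.36 and 0.07 ± 0.54.

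In the indolic core CYP83B1 (AT4G31500), which oxidises the indolic aldoxime, varied most between arrays, at 1.16, -0.54 and 0.11 (mean 0.24 ± 0.86, adjusted p = 0.823). SOT16 (AT1G74100), the sulphotransferase gene of that branch, gave 0.45, -0.11 and 0.02 (mean 0.12 ± 0.29, adjusted p = 0.766). The genes that serve both branches differed from each other. SUR1 (AT2G20610), the C-S lyase gene, was below 0 on all 3 arrays, at -0.35, -0.66 and -0.31 (mean -0.44 ± 0.19, 95% interval -0.73 to -0.15, adjusted p = 0.131), with probe means of -0.74 and -0.13. The second of these probes stood at 0.19 on array 1. UGT74B1 (AT1G24100), a glucosyltransferase gene, gave 0.20, -0.04 and 0.09 (mean 0.08 ± 0.12, adjusted p = 0.763).

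Side-chain modification was measured by 1 gene. CYP81F2 (AT5G57220), which hydroxylates the indole ring in the route to defence products, stood at 0.52, 1.21 and 0.17, above 0 on every array (mean 0.63 ± 0.53, 1.55-fold, 95% interval 0.05 to 1.22, adjusted p = 0.221). It was the 1 indolic gene whose ratio on array 2 exceeded both others. The 5 flavin monooxygenase genes that oxidise the aliphatic side chain, FMOGS-OX1 to FMOGS-OX5, had no named probe, so this step of the aliphatic branch is not analysed here.

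**Figure D2:**
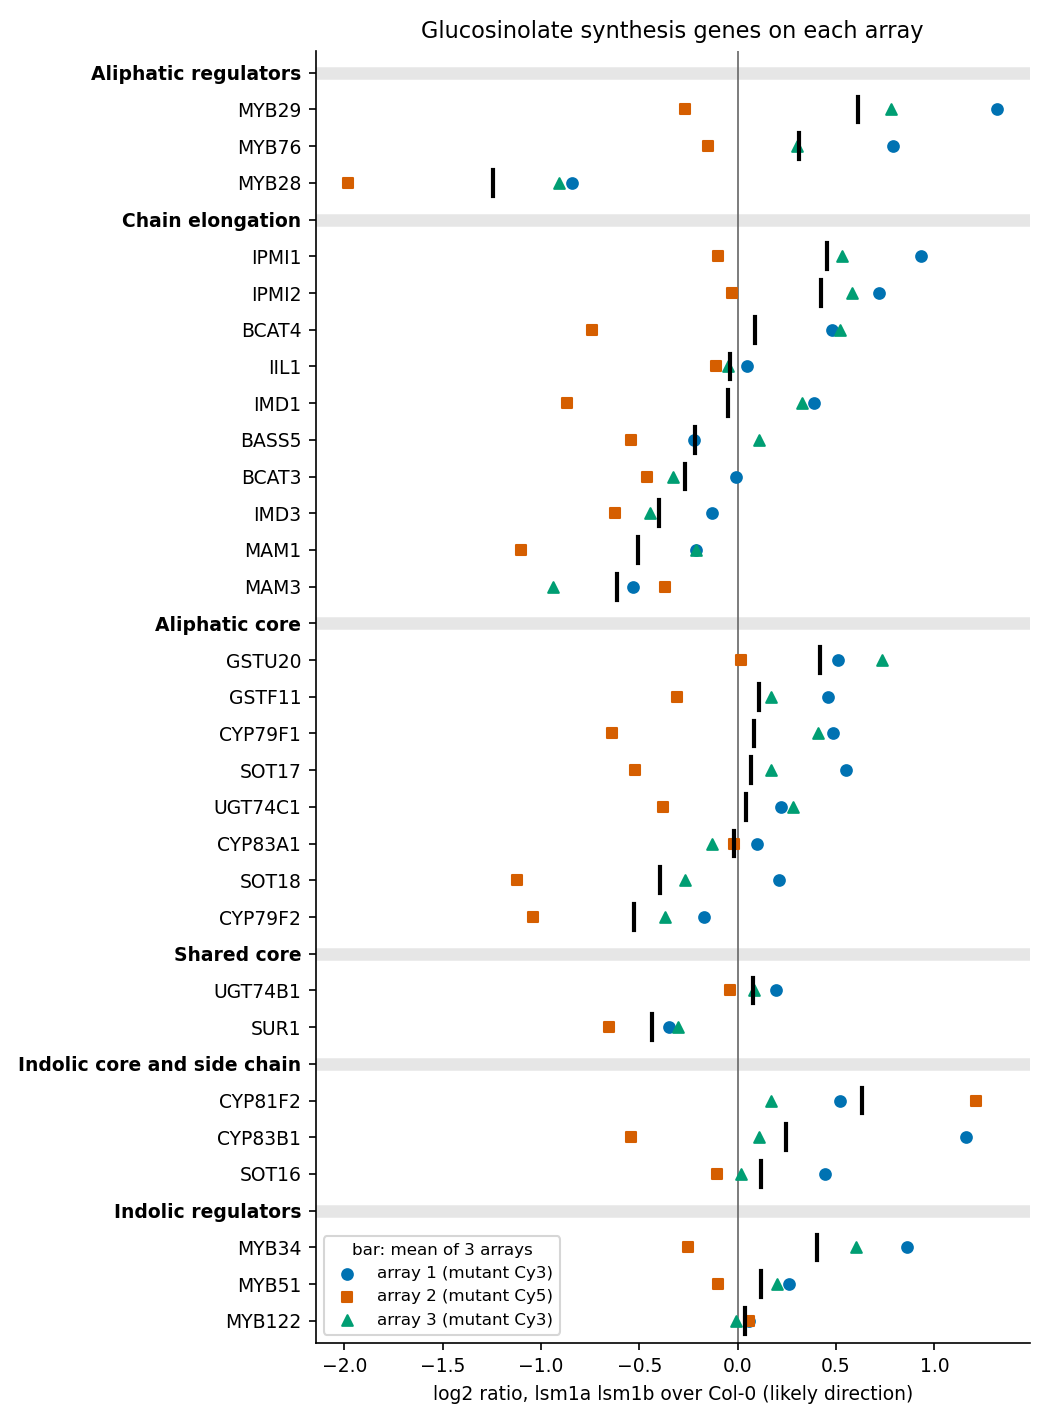
Log2 ratios of lsm1a lsm1b over Col-0 (horizontal axis) of the 29 measured regulators and synthesis genes, grouped by role and branch, with 1 symbol per array and a black bar at the mean of 3 arrays. The square of array 2 is the leftmost symbol for 25 of the 29 genes, and the mean bar of MYB28 stands left of all other mean bars.

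Compared as branches, the aliphatic and indolic genes overlapped on every array. The 21 measured aliphatic genes had medians of 0.22, -0.46 and 0.17 on arrays 1, 2 and 3, and the 6 indolic genes had medians of 0.48, -0.10 and 0.14. The median of all genes was within 0.01 of 0 on each array. The aliphatic minus indolic difference was -0.26, -0.36 and 0.03, and that of the medians of mean ratios was -0.20 (-0.02 for the aliphatic and 0.18 for the indolic branch). The SD of the difference over arrays was 0.20, as large as the difference itself. Without the regulators the difference was -0.31, -0.39 and 0.03, for 18 aliphatic and 3 indolic genes, and that of the medians of mean ratios was -0.27 (SD over arrays 0.22). In the core alone, for 8 aliphatic and 2 indolic genes, it was -0.46, -0.13 and 0.11. The core difference of the medians of mean ratios was -0.13 (SD over arrays 0.29). Among the regulators alone it ran the other way on average, at 0.53, -0.17 and 0.10 for 3 genes of each branch, with 0.19 for the medians of mean ratios (SD over arrays 0.35). No test was made of these medians, because genes are not replicates and the lists were drawn up with earlier results of these arrays known.

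Counted gene by gene, 6 of 21 aliphatic genes were below 0 on all 3 arrays, namely MYB28, MAM1, MAM3, BCAT3, IMD3 and CYP79F2, against 18% of all genes. Above 0 on all 3 arrays was 1 aliphatic gene, GSTU20, and 1 of 6 indolic genes, CYP81F2, against 19.7% of all genes. These signs are those of probe averages. On array 1 a probe of MAM1 stood at 0.07 and a probe of IMD3 at 0.13, and on array 2 a probe of GSTU20 stood at -0.13. No indolic gene was below 0 on all 3 arrays. The 6 indolic means all lay above 0, from 0.04 to 0.63, and the 21 aliphatic means ran from -1.24 to 0.61, so the branches overlapped. The common sign holds for these 6 only. Outside the list, 5 further measured indolic genes had means from -0.32 to 0.13 (median 0.07). Among them the entry enzyme genes CYP79B2 and CYP79B3 stood at -0.31 and -0.32. For 4 further aliphatic genes the means ran from -0.86 to 0.11 (median -0.18). At an unadjusted p under 0.05 there were 4 of 21 aliphatic genes (19.0%), all lower in the mutant, and 1 of 6 indolic genes (16.7%), higher in the mutant, both shares close to the 20.1% of all genes.

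**Figure D3:**
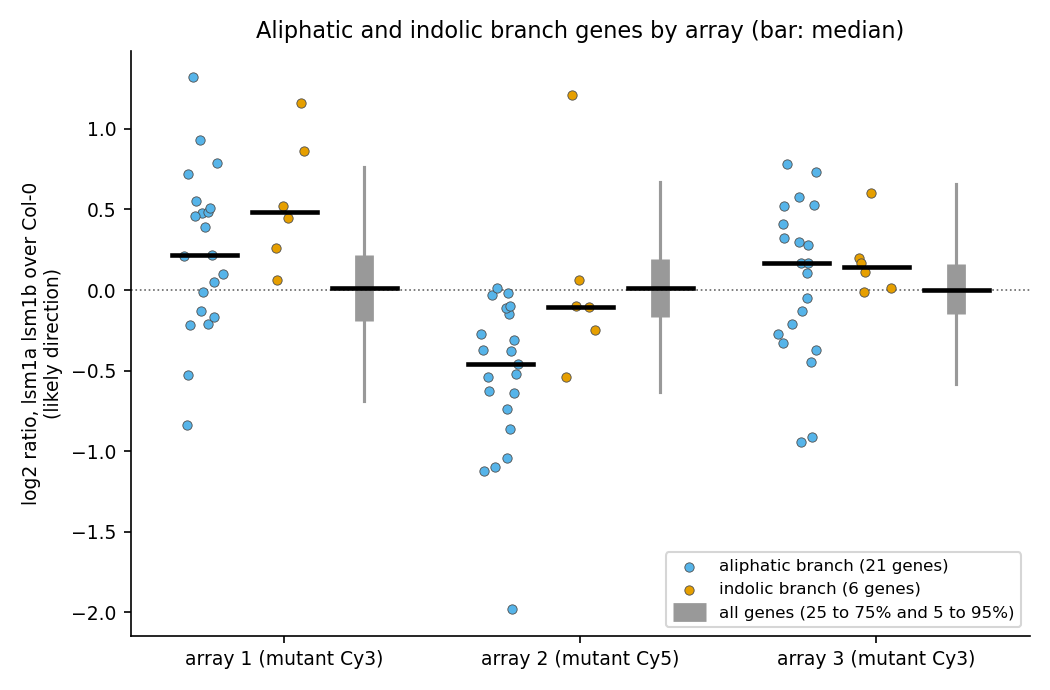
Log2 ratios of lsm1a lsm1b over Col-0 (vertical axis) of the 21 aliphatic and 6 indolic genes on each array, with black bars at the medians and grey bars for the middle of all 24648 genes. The aliphatic median is -0.46 on array 2, against 0.22 and 0.17 on arrays 1 and 3, while the median of all genes stays near 0.

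The arrays disagreed about the aliphatic branch as a block. On array 2, 20 of 21 aliphatic genes were below 0, against 47.4% of all genes. On array 1, 14 of 21 were above 0 (background 50.8%), and on array 3, 12 of 21 (background 48.6%). Array 2 gave the lowest of the 3 ratios for 19 of 21 aliphatic genes, with MAM3 and CYP83A1 as the exceptions, and for 4 of 6 indolic genes, against 37.9% of all genes. The median of array 2 minus the mean of arrays 1 and 3 was -0.695 for aliphatic genes, -0.33 for indolic genes, 0.02 for breakdown genes and 0.015 for all genes. Array 2 is the one dye-swapped array and also a separate biological replicate, and these cannot be told apart. Averaging both dye orientations with equal weight gave medians of -0.10 for the aliphatic and 0.06 for the indolic branch. Of the 36 genes, 14 had 1 sign on all 3 arrays (38.9%, background 37.6%), and these include the 10 with an unadjusted p under 0.05: MYB28, MAM3, IMD3, CYP79F2, SUR1, TGG1, TGG2 and ESM1 below 0, and ESP and CYP81F2 above 0.

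**Figure D4:**
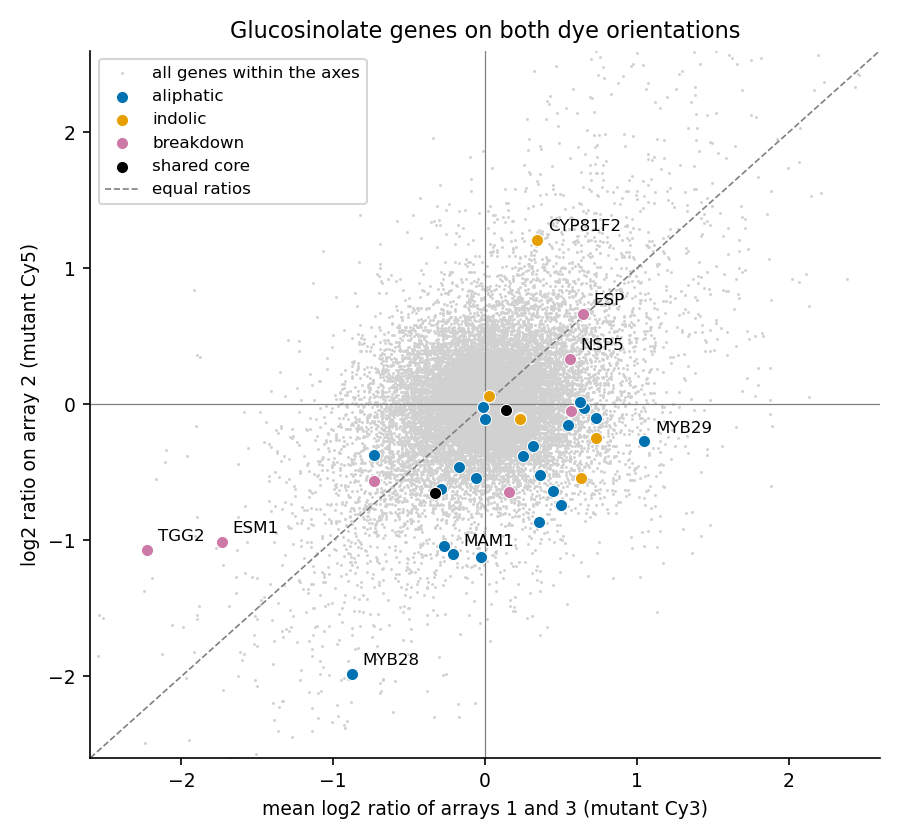
Log2 ratio on array 2 (vertical axis) against the mean log2 ratio of arrays 1 and 3 (horizontal axis) for every gene (grey) and for the glucosinolate genes by branch, with a dashed line where both are equal. Most aliphatic genes lie below the line and below 0 on array 2, while TGG2 and ESM1 lie above the line in the lower left and ESP lies close to it.

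Further genes of the pathway gave no call. Of 39 listed genes outside the 42, 27 were measured and 0 passed the threshold (background 1.21%). An unadjusted p under 0.05 in limma was reached by 3 lower and 1 higher (backgrounds 9.48% and 10.6%). The median of mean ratios of the 27 was 0.01, against 0.01 for all genes. NSP4, a further nitrile specifier gene, stood at -0.78 ± 0.31 (adjusted p = 0.0857), and NIT1, a nitrilase gene, at -0.67 ± 0.28 (adjusted p = 0.0954). Both were below 0 on all 3 arrays. Also lower at an unadjusted p under 0.05 in limma was IMD2 (mean -0.39), and the higher gene was NIT3. NIT3, a further nitrilase gene, gave 0.20, 0.85 and 0.37 on arrays 1, 2 and 3 (mean 0.47 ± 0.34, adjusted p = 0.198). The nitrilase gene NIT2 had no common sign (mean -0.11 ± 0.65). IMD2, NIT2 and NIT3 are named outside the rule. GSL-OH, the oxygenase gene that hydroxylates butenyl glucosinolates, had the largest mean of the list but no common sign, with -1.82, -2.20 and 1.46 on arrays 1, 2 and 3 (mean -0.86 ± 2.01, adjusted p = 0.672). Its 4 probes gave means between -0.92 and -0.81. The entry enzymes of the indolic branch, CYP79B2 and CYP79B3, named outside the rule, stood at -0.31 ± 0.55 and -0.32 ± 0.58, with array 1 above 0 and arrays 2 and 3 below it for both.

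PYK10 was set beside genes of the endoplasmic reticulum bodies that hold it. Of 5 listed, 4 were measured and 0 passed the threshold (background 1.21%). TSA1, which encodes a relative of the body protein NAI2, stood at -0.37, -0.90 and -0.96 (mean -0.74 ± 0.32, adjusted p = 0.0936). NAI1, the transcription factor gene required for these bodies, stood at -0.32 ± 0.21, and NAI2, a structural protein gene, at 0.28 ± 0.37. PBP1, of the same list and named outside the rule, gave -0.215, -0.48 and -0.03 (mean -0.24 ± 0.23, adjusted p = 0.361). TSA1, NAI1 and PBP1, 3 of the 4 measured, were below 0 on all 3 arrays (background 18%). An unadjusted p under 0.05 in limma was reached by 2 of the 4, both lower (background 9.48%). PYK10 and NAI2 were above 0 on arrays 1 and 3 and below 0 on array 2. PYK10 is known as a root gene, and of 7 measured root markers 0 passed the threshold (background 1.21%), with means from -0.13 to 0.15.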

How the data were processed

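The authors deposited 1 normalized log2 ratio per probe and array for 43656 rows. The submitters' processing notes name limma without a version. Background correction, within-array normalization and sign: not given in the sources used here. From their range the values were read as log2. After 55 control features, 34255 of 43601 probes were named through the platform annotation and the RefSeq gene table of TAIR10.1 (32222 by accession, 2033 by symbol), giving 24648 genes, and probes of a gene were averaged per array. The number of arrays limits the precision. Of the measured genes, 22 had 1 probe. With limma 3.58.1 (R 4.3.3; lmFit, eBayes, two-sided) each gene's mean ratio was set against 0, with Benjamini-Hochberg adjustment over 24648 genes, after a check on simulated ratios. Intervals are limma's at 95%.

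The genes, lists and rules were chosen with earlier results of these data known. Every measured gene of the glucosinolate list has a value. Values on each array are given, by role and branch, for the 3 largest absolute means, and of each other list the genes past the threshold or otherwise the 3 largest are named. The other lists held further pathway, endoplasmic reticulum body, sulphur supply, guard cell and root genes. Alternatives changed the probe summary, a dye term, the arrays used, scaling, centring, disagreeing probes and the variance prior. Coordinates are left out, since the array's genome build is unknown here.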

Additional observations from a re-analysis of the deposited data

How the results depend on the processing

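No measured glucosinolate gene passed the threshold under any alternative run. The number with an unadjusted p under 0.05 was 10, and ranged from 7 to 17 with 1 array left out (10, 17 and 7 without arrays 1, 2 and 3, when 11.4%, 29.7% and 10.3% of all genes reached it). It was 15 with a dye term (25.9% of all genes) and 10 or 11 otherwise. Over all genes 298 passed, against 76 after scaling the arrays to the same spread, 181 with robust eBayes, and 0 with a dye term or without any 1 array; fewer arrays or residual degrees of freedom enter the last of these, and the cause of the others was not tested. With 1 array left out, the aliphatic median ranged from -0.115 to 0.25, the indolic median from 0.0375 to 0.2875 and their difference from -0.3175 to -0.0375. Of the 36 genes, 25 kept the sign of their mean in every alternative, and IIL1 was at 0 without array 2. With a dye term the sign turned for BCAT4 (-0.12), CYP79F1 (-0.096), UGT74C1 (-0.065), SOT17 (-0.08) and the root marker SCR (0.0025). With 1 array left out, means ranged from -0.13 to 0.50 for BCAT4, -0.27 to 0.3575 for IMD1, -0.115 to 0.4475 for CYP79F1, -0.075 to 0.04 for CYP83A1, -0.215 to 0.635 for CYP83B1, -0.07 to 0.315 for GSTF11, -0.08 to 0.25 for UGT74C1, -0.045 to 0.23 for SOT16, -0.175 to 0.36 for SOT17, -0.2825 to 0.155 for NSP1, -0.01 to 0.2925 for PHO1 and -0.198 to 0.0517 for SCR. GC1 kept its direction but not its call with a dye term or without any 1 array. Each ratio already sets both genotypes of an array side by side, so the test against 0 is paired by array. The arrays form 1 group of ratios, in which no further replicate block can be fitted. Signal over background was not available.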

Other observations

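Genes that respond to sulphur supply, which glucosinolate synthesis draws on, had their highest median on array 2, where the aliphatic branch had its lowest. Of 10 listed, 8 were measured and 0 passed the threshold (background 1.21%), with 0 at an unadjusted p under 0.05 in limma (background 20.1%). Their medians were -0.08, 0.35 and -0.34 on arrays 1, 2 and 3, and array 2 gave the highest ratio for 7 of the 8, against 41.6% of all genes. The exception, BGLU28, gave -0.06, -0.34 and -0.04, with array 2 the lowest. LSU1, a sulphur deficiency marker gene, stood at 0.23, 1.08 and 0.23 (mean 0.51 ± 0.49, adjusted p = 0.277). Its 2 probes differed, with means of 0.12 and 0.90. SDI2, a gene related to SDI1, stood at 0.39 ± 0.44, and APR1, a sulphate reduction enzyme gene, at -0.29 ± 0.27. SDI1, a repressor gene of aliphatic synthesis and named outside the rule, gave -0.49, 1.52 and -0.37 (mean 0.22 ± 1.13). Of the root markers PHO1 stood at 0.15 ± 0.30, SHR at -0.13 ± 0.13 and SCR at -0.06 ± 0.25, and array 2 gave the highest ratio for 6 of the 7 measured. The relation of these lists to the aliphatic genes was not tested.

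In gene order, SOT16 directly neighbours SOT18, and SOT18 minus SOT16 was -0.24, -1.02 and -0.29 within the 3 arrays. MYB51 and SOT17 lie with 1 coding gene between them and with 57 and 55 coding genes between them and LSM1A, and their means were 0.12 and 0.07.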
